A study of Mus musculus with 12 samples.

Results

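Trav genes are the variable (V) segments of the T cell receptor alpha chain. They were taken as all genes whose symbol starts with Trav, which gave 128 of the 51826 genes measured. The gene models class 108 of them as V genes and 20 as pseudogenes. Many Trav segments exist as near-identical copies marked d and n (Trav7-2 and Trav7d-2, for example), and with these copies joined the 128 genes formed 57 segments in 23 families. The Trav6 family, which older nomenclature calls V alpha 4, holds 15 genes. For each library, estimated counts were summed per gene and expressed as a percentage of all Trav counts.

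In developing T cells 1 Trav segment is joined to 1 of the Traj segments that lie just before the constant gene Trac, and the joined gene is read into the alpha chain mRNA. The DNA between the joined segments, which includes the genes of the delta chain, is removed from that chromosome, and a cell can join again with segments farther out. A thymus with many different T cells therefore uses many Trav segments, a clone uses 1 or a few, and a receptor transgene adds a ready-made alpha and beta chain to the T cells. The F5 receptor is such a transgene, and its alpha chain belongs to V alpha 4 and its beta chain to V beta 11, which is Trbv16.

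The 12 libraries held polyadenylated RNA from the thymus of mice, with paired reads of 75 bases. All carry the strain label F5. The tumor group was 9 T cell acute lymphoblastic leukemias from the thymus of mice in which doxycycline induces the interleukin-7 receptor alpha chain (Il7r) through a tetracycline-responsive construct, and the control group was 3 thymus libraries of healthy mice. The sources used here do not give the promoter of that construct, the ages, or which Trav6 gene the F5 transgene carries. The labels do not say which libraries came from separate animals, so a p-value here reflects only how these samples vary, and that variation may be technical.

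Each control held 8133152 to 12019924 estimated counts in total, and each tumor 11617724 to 34769946. Trav counts were few, between 761 and 965 per control and between 350 and 2197 per tumor with a median of 646. The libraries split in composition, since 31.6% to 69.3% of the counts of tumors 1 to 6 were mitochondrial, but only 0.0948% to 6.73% in the controls, with 2.54% to 11.1% in tumors 7 to 9. Il7r, the gene the labels name as induced, had 75 to 88 counts per control. Tumors 1 to 6 held 522 to 4151 counts of it, but tumors 7 to 9 only 87 to 168. Below, tumor stands for a library labelled so. Of 10 thymocyte markers, 8 to 10 had at least 10 counts and lay above the 95th percentile of 1904 olfactory and vomeronasal receptor genes (in counts per kilobase, a reference for genes that thymus is not known to use) in tumors 1 to 6. In the controls 0 to 2 did, and in tumors 7 to 9 between 1 and 2, so few markers of the labelled tissue stood out there. Their summed level, as CPM of the library total, was 134 to 205 in the controls. Tumors 1 to 6 reached 348 to 1150 CPM, against 79.0 to 152 CPM for tumors 7 to 9. Of 5 macrophage markers 2 or 3 lay above it in tumors 1 to 6 and 0 in the other libraries, with summed levels of 7.81 to 54.6 CPM in tumors 1 to 6 and 22.8 to 26.9 CPM in the controls, and none of them at 0. Of 4 erythroid markers, 1 did in each of tumors 3 to 6. No B cell, NK cell or thymic epithelial marker did, except 1 B cell and 2 NK cell markers in tumor 4. The part of these other cells in the Trav values was not tested. In bulk RNA, fewer T cells and less receptor RNA per cell cannot be told apart.

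The gene that led 11 of the 12 libraries was Trav6-1 (ENSMUSG00000076762.1), at chr14:52638515-52638962 on the plus strand of GRCm38 (mm10), a V gene of the Trav6 family. The last 300 of the 338 bases of its transcript are shown because most of the results turn on it. Sequences are those of the GENCODE M21 transcripts, which matched all 128 Trav genes, and the capitals mark the codon of the conserved cysteine near the segment's end, after which the joined sequence of each cell begins to differ.

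Trav6-1: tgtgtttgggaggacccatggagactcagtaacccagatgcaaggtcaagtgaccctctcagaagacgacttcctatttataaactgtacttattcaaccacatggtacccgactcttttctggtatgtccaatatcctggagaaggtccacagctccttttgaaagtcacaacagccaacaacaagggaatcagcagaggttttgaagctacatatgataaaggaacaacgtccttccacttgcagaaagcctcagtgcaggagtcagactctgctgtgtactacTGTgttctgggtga

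Trav6-2 (chr14:52667411-52667864) is its closest relative, with 95.6% identity over the last 270 bases. The stretch of 60 bases below holds 6 of the 12 differences in those 270 bases, and capitals mark them. Of the 31-base words in the Trav6-1 transcript, 77.6% occur in no transcript of another gene, so counts of Trav6-1 could be told from those of Trav6-2.

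Trav6-1: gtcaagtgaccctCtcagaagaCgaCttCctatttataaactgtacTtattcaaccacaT
Trav6-2: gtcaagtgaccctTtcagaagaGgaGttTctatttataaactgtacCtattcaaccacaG

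Other copies were less separable. Trav6n-6 (chr14:53132679-53133137) and Trav6-6 (chr14:53516929-53517366) differ at 3 of the 60 bases shown, in capitals, and 51.0% of the words of Trav6n-6 are its own.

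Trav6n-6: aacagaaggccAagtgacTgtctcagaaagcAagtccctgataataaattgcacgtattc
Trav6-6: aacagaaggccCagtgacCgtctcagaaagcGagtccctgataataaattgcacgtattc

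Over all 128 genes, 42 had no word of their own, 54 (these included) had under 10%, and in 9 every word was their own. With d and n copies joined, each of the 57 segments had words of its own. Shares are therefore given for segments, and values of single copies (in the edgeR calls, the runs without a count and the d and n blocks) rest in part on how kallisto divided shared reads. The last 60 bases of some segments described below for certain tumors are shown next, with the cysteine codon in capitals. After that codon Trav7d-2 and Trav10 have the same bases.

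Trav7d-2: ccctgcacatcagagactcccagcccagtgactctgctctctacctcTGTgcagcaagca
Trav6n-6: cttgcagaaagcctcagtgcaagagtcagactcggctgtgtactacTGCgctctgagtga
Trav7-4: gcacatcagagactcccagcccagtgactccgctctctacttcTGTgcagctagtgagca
Trav10: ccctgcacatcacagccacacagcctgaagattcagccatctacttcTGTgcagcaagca
Trav7-5: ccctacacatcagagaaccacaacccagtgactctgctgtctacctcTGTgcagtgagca
Trav17: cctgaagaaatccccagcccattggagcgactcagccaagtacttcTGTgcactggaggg

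In the healthy thymus libraries Trav6-1 took 31.6%, 20.9% and 23.9% of the Trav counts, from 241, 202 and 215 counts. No other segment came near it there. The segments that followed were Trav14-2 at 2.91% in control 1, Trav12-1 at 2.85% in control 2 and Trav3-2 at 3.01% in control 3. Control shares averaged 25.5% ± 5.54 (SD, n = 3) for Trav6-1. The 95% Wilson intervals of the 3 shares ran from 28.5% to 35.1%, from 18.5% to 23.6% and from 21.3% to 26.8%, and they cover counting error only, as do all intervals here.

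In the 9 tumors the Trav6-1 share had a lowest value of 7.56%, a median of 31.6% and a highest value of 79.0%, with a mean of 32.7% ± 24.6 (SD, n = 9). Tumor 6 held 1737 Trav6-1 counts, 79.0% of its Trav counts (95% Wilson interval 77.3% to 80.7%). Tumor 5 followed with 679 counts and 62.6% (59.7% to 65.4%). These were the highest of all libraries. Tumors 1 and 8, at 38.6% and 33.1%, were also above the highest control, and tumor 2 was inside the control range at 31.6%. Tumors 4 and 3 were at 18.2% and 15.9%, and tumors 7 and 9 at 7.69% and 7.56%. Of the 9 tumors, 4 therefore lay above the highest control and 4 below the lowest, so the tumors spread to both sides of the control range. Which tumors did so depended on background. With counts at the median density of the receptor genes subtracted, the Trav6-1 share was 61.1%, 38.7% and 43.5% in the controls. In tumors 5 and 6 the median was 0, so nothing was subtracted and their shares of 62.6% and 79.0% could not change. Both were above the highest control, but its 61.1% lay inside the Wilson interval of tumor 5 (59.7% to 65.4%). Tumors 1 and 8, at 43.7% and 58.4%, were then inside the control range, and tumor 2, at 35.4%, below it.

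**Figure D1:**
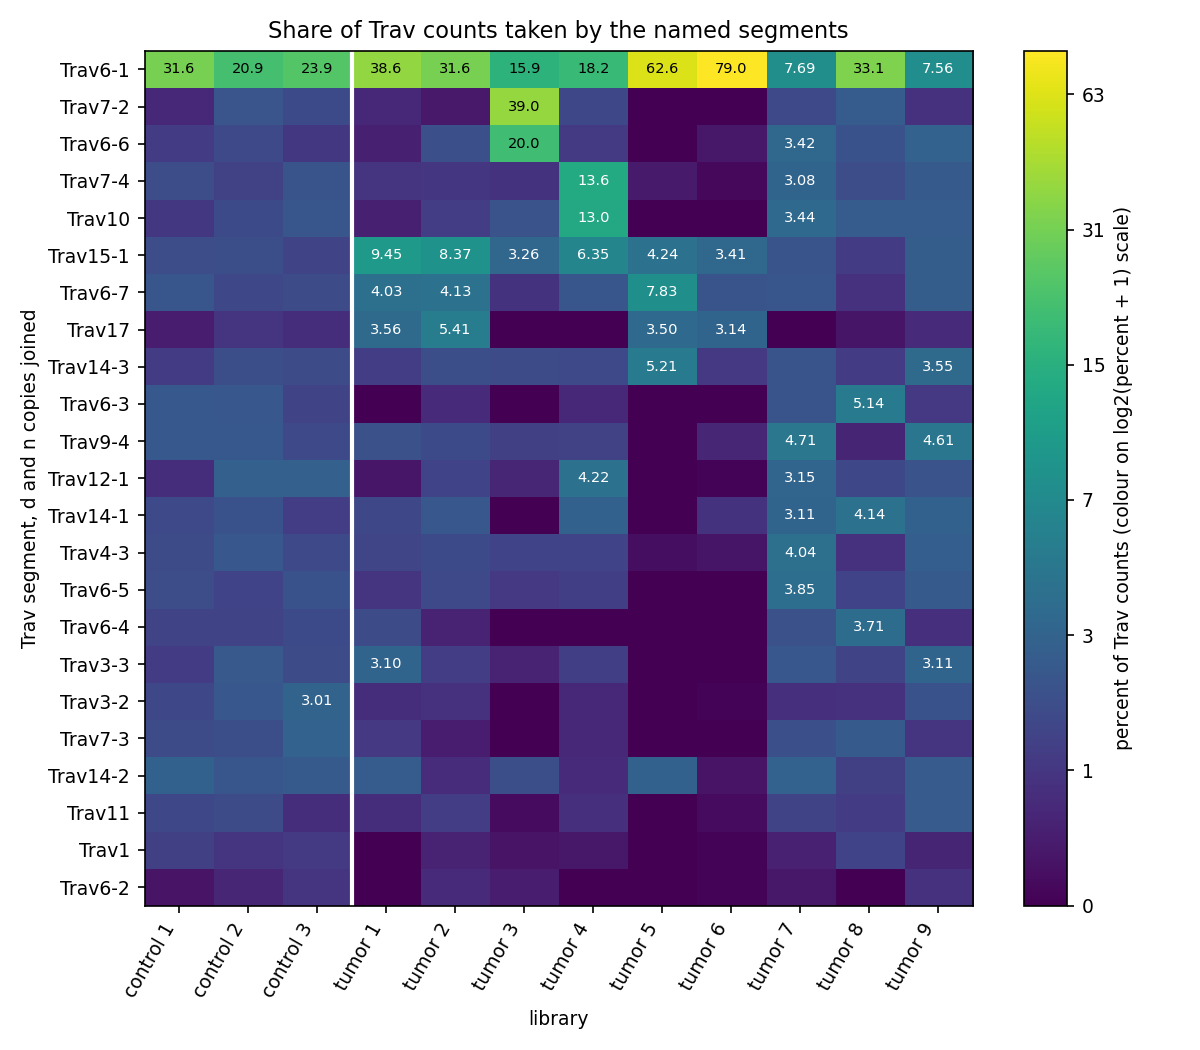
Percentage of Trav counts (colour, on a log2(percent + 1) scale) taken by the 23 named segments, d and n copies joined, in each of the 12 libraries; shares of 3% or more are printed. Trav6-1 is the brightest row in every library except tumor 3, where Trav7-2 takes 39.0%.

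The Trav6 family as a whole took 41.0%, 29.9% and 32.7% of the Trav counts in controls 1 to 3. In the tumors the lowest family share was 18.3% (tumor 9), the median 41.2% (tumor 2) and the highest 81.6% (tumor 6). Tumors 1, 2, 5, 6 and 8 lay above the highest control, tumors 4, 7 and 9 below the lowest, and tumor 3 between the controls at 38.3%. The control mean was 34.5% ± 5.77 (SD, n = 3) and the tumor mean 43.0% ± 21.6 (SD, n = 9). The difference of 8.45 percentage points was within the spread of the tumors (two-sided exact permutation test over 220 splits, p = 0.6; the smallest p the design allows is 0.00455). The sign turned to -6.98 points once counts at the median density of the receptor genes were subtracted, and to -5.79 points with tumors 7 to 9 as the only tumors. Without tumors 7 to 9 the difference was 15.6 points (two-sided exact permutation test, p = 0.31).

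Trav6-1 made up most of the family in every library except tumors 3, 7 and 9. The other 14 Trav6 genes together held 8.83% to 9.33% of the Trav counts in the controls and 2.50% to 22.4% in the tumors. Trav6-2, the near relative shown above, stood at 0.270% to 0.924% in the controls and at 0 to 0.865% in the tumors. Trav6-3 had 1.45% to 2.36% in the controls, and 5.14% (18 counts) in tumor 8. Trav6-4 had 1.44% to 1.67% in the controls and 3.71% (13 counts) in tumor 8, while tumors 3 to 6 had none. Tumor 8 thus had the highest share of both. Trav6-5 had 1.40% to 2.00% in the controls and 3.85% in tumor 7. Trav6-6 had 1.02% to 1.64% in the controls against 20.0% (154 counts) in tumor 3. Trav6-7 had 1.59% to 2.23% in the controls and 7.83% (85 counts) in tumor 5. The high family shares of tumors 5 and 6 were thus mostly Trav6-1, while in tumor 3 Trav6-6 held more than Trav6-1.

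**Figure D2:**
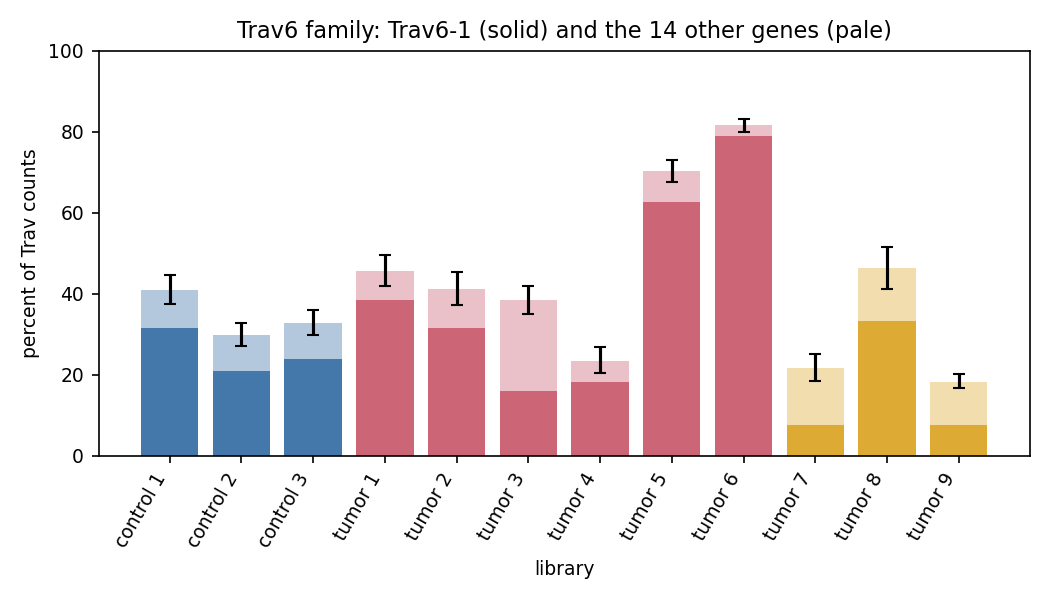
Percentage of Trav counts in the Trav6 family per library, with Trav6-1 as the solid part and the 14 other genes as the pale part of each bar; blue bars are controls, red tumors 1 to 6 and yellow tumors 7 to 9, and the black lines are 95% Wilson intervals of the family share. The family reaches 70.4% in tumor 5 and 81.6% in tumor 6, and 18.3% in tumor 9.

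Tumor 3 was the library with another leader. Trav7-2, with its d copy joined, had 299 counts there, 39.0% of its Trav counts (95% Wilson interval 35.6% to 42.5%), against 0.657% to 2.16% in the controls. The Trav6-6 segment came next at 20.0%, and its counts fell on the copy Trav6n-6. Trav6-1 was in the third place with 122 counts. kallisto placed the 299 counts on Trav7d-2 (chr14:52683964-52684472), but only 1 word (0.326%) of that transcript is its own and Trav7-2 (chr14:53390635-53391142) lies far nearer Trac, so which copy they came from cannot be told apart.

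Tumor 4 had no single leader. Trav6-1 held 18.2% (115 counts), Trav7-4 13.6% (86 counts) and Trav10 13.0% (82 counts). Trav7-5, named after its values were seen, held 10.8% (68 counts). In the controls these last 3 segments had 1.35% to 2.13%, 1.05% to 2.23% and 0.933% to 1.45%. kallisto placed most of these counts on the plain copies, at 759.4, 714.8 and 689.7 kilobases from Trac. Only 11.4% of the words of Trav7-4 and 24.7% of those of Trav10 are their own, against 74.3% for Trav7-5, so the copy is less certain for the first 2.

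Trav15-1 and Trav17, minor segments, were above the controls in tumors 1, 2, 5 and 6. Trav15-1, with copies whose symbols mark use by the delta chain as well, held 9.45%, 8.37%, 4.24% and 3.41% in these tumors against 1.45% to 1.86% in the controls, and it was also at 3.26% and 6.35% in tumors 3 and 4. Trav17 held 3.56%, 5.41%, 3.50% and 3.14%, against 0.394% to 0.933% in the controls, and had no count in tumors 3, 4 and 7. Trav14-3 was at 5.21% in tumor 5 and 3.55% in tumor 9, and at 1.13% to 1.89% in the controls. In tumors 1, 2 and 6 it was at 1.22%, 1.87% and 1.06%, not above the controls. The 10 members whose symbols mark use by the delta chain as well held 4.43% to 6.53% of Trav counts in the controls and 3.14% to 11.7% in the tumors, and the groups overlapped.

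Segments known for unconventional T cells did not stand out in the controls. Trav11, the segment of the invariant natural killer T cell receptor, had 7 to 17 counts per control and 0 to 47 per tumor, or 0.779% to 1.76% and 0 to 2.51% of Trav counts. Zbtb16, the factor that marks those cells, lay above the receptor percentile in none of the 12 libraries. Trav1, the segment of mucosal-associated invariant T cells, had 9 or 10 counts per control (0.933% to 1.31%) and 0 to 11 per tumor (0 to 1.43%). Trav19 was singled out after its values were seen: it had 7, 12 and 11 counts in the controls, none in tumors 1 to 8, and 13 in tumor 9. A count of 0 allows a share of up to 0.137% in tumor 6 and up to 0.857% in tumor 8, the deepest and the shallowest of those 8 tumors in Trav counts.

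The number of segments in use can be put as an effective number, the count of equally used segments that would give the same evenness (the inverse Simpson index). It was 9.02, 17.5 and 14.3 in the controls. In the tumors the lowest was 1.59 (tumor 6), the median 7.97 (tumor 8) and the highest 37.3 (tumor 9), with 2.45 in tumor 5, 4.51 in tumor 3 and 32.7 in tumor 7. With Trav6-1 left out it was 43.3, 46.7 and 45.1 in the controls. Tumors 1 to 6 then had 3.60 to 23.5 and tumors 7 to 9 had 28.7 to 40.5. The tumors without Trav6-1 all lay below the lowest control, and tumor 3 was the lowest. In the controls the other Trav genes lay near the density of the receptor genes (given below), so these values may hold background. With counts at the receptor median subtracted and Trav6-1 kept, the controls were at 2.64 to 6.27. Tumors 2, 4, 7 and 9 were then above all controls, at 6.8 to 29.5. Tumors 1, 3 and 8 were within the control range, and tumors 5 and 6 below it. This measure over the members was given no test.

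How much of these counts exceeded the level of unused genes differed among libraries. The median density of the 1904 olfactory and vomeronasal receptor genes was 20.2 to 22.3 counts per kilobase of effective length in the controls. Tumors 7 to 9 were alike at 13.7 to 24.1, and tumors 1 to 6 were at 0 to 4.38. Trav6-1 stood at 1180 to 1360 counts per kilobase in the controls, 6.21 to 7.57 times the 95th percentile of the receptor genes. In tumors 7, 8 and 9 it was 1.80, 3.33 and 3.27 times that percentile, and in tumors 1 to 6 it was 28.5 to 397 times. It was above the percentile in 12 of 12 libraries. The other 127 Trav genes had a median density of 16.1, 28.6 and 26.6 counts per kilobase in controls 1 to 3, beside receptor medians of 22.3, 21.7 and 20.2. Their mean density was 0.366, 0.581 and 0.570 times the receptor mean. Of all 128 members, Trav6-1 alone had at least 10 counts and lay above the percentile in each control and in tumors 7 to 9, whereas 4, 8, 7, 9, 16 and 12 members did in tumors 1 to 6. Trav15n-1 was among them in 6 of these 6 tumors, and Trav17 and Trav6-7-dv9 in tumors 1, 2, 5 and 6.

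**Figure D3:**
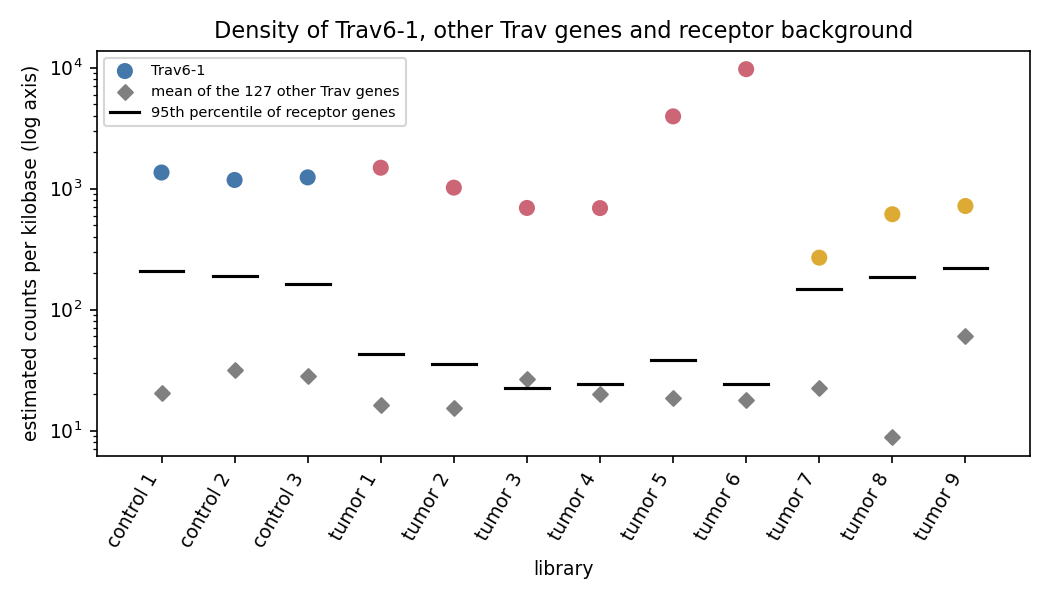
Estimated counts per kilobase of effective length (log axis) of Trav6-1 (circles; blue controls, red tumors 1 to 6, yellow tumors 7 to 9), the mean of the 127 other Trav genes (diamonds) and the 95th percentile of the olfactory and vomeronasal receptor genes (lines) in each library. Trav6-1 lies above the line in 12 libraries, by the smallest factor, 1.80, in tumor 7.

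The edgeR quasi-likelihood test over all 12 libraries, scaled by trimmed mean of M-values factors, tested 67 of the 128 Trav genes after the filter on low counts. It called none of them higher in tumors (0% of all 40521 genes tested were called higher) and none lower (0.00494% of all genes), at a Benjamini-Hochberg adjusted p below 0.05. At an unadjusted p below 0.05 there were 6 of the 67. The share of all genes at that cutoff was not taken, so this count is not read as a result about the members. DESeq2, which gave an adjusted p for only 1 of the 128, called 0 (25.6% of all genes were called higher by DESeq2 and 0.366% lower). A fit with the replicate numbers as a block, which do not pair the samples, called 7 higher and 0 lower, where 20.7% of all genes were called higher and 5.75% lower. The median log2 fold change of the 67 was -0.16, beside -0.45 over all genes. Trav6-1 had a log2 fold change of 1.68 ± 0.95 (SE; edgeR adjusted p = 0.415). Trav7d-2 had 3.20 ± 2.15 (SE; edgeR adjusted p = 0.538), and without tumor 3 its value was -0.81. Scaling by library totals alone turned Trav6-1 to -0.33, while the median over all genes moved from -0.45 to -1.83.

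Between the controls and tumors 1 to 6 alone, the same edgeR test called 3 of 47 tested Trav genes higher, where 19.6% of all genes were called higher, and 9 lower, where 20.3% were. The share of members called higher was thus under that of all genes, and the share called lower near it. The 3 higher ones were Trav6-1 (log2 fold change 1.99 ± 0.69, SE; edgeR adjusted p = 0.0353), Trav15n-1 (3.75 ± 0.86, SE; edgeR adjusted p = 0.00421) and Trav14d-3-dv8 (4.13 ± 1.05, SE; edgeR adjusted p = 0.00759). The 9 lower ones ran from -5.83 for Trav19 to -2.95 for Trav14-2, with Trav5-4, Trav4-2, Trav13-1, Trav3-2, Trav5-2, Trav7-1 and Trav9d-1 between them. Trav6-1 had 181, 122 and 115 counts in tumors 2 to 4, fewer than each control (202 to 241). It had 249 in tumor 1, 679 in tumor 5 and 1737 in tumor 6. Scaling by library totals, which turned Trav6-1 to -0.33 over all 12 libraries, was not run for tumors 1 to 6 alone. No word of Trav15n-1 is its own, so its counts may belong to the other copies of Trav15-1. For Trav14d-3-dv8 35.0% of the words are its own. With copies joined, Trav14-3 had 8.61 to 18.2 counts per control and 7.86 to 13.5 in tumors 1 to 4. It had 56.5 in tumor 5 and 23.4 in tumor 6. All 9 lower genes were called beside a median over all genes of -1.29 in this fit. None of the 9 had at least 10 counts and lay above the receptor percentile in any control, so none stood out from unused genes there. The receptor genes had a lower density in these tumors too. Each control had a receptor median of at least 20.2 counts per kilobase, whereas tumors 1 to 6 reached at most 4.38. How far the 9 calls follow that background was not tested. Between the controls and tumors 7 to 9, edgeR called 0 of 22 tested Trav genes in either direction (0.0247% of all genes each way). The share of all genes at an unadjusted p below 0.05 was not taken here, where 1 of the 22 passed. That gene was Trav6-1, at -0.96 ± 0.23 (SE; edgeR adjusted p = 0.283). With trimmed mean of M-values factors the direction of Trav6-1 was thus opposite in the 2 sets of tumors. The difference between them was not tested.

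Trac, the constant segment that every alpha chain mRNA carries, was highest in the same tumors as Trav6-1. It had 463, 449 and 430 counts in the controls. Tumors 1 to 6 held 451 to 3208 and tumors 7 to 9 held 165 to 435. Both genes had their highest counts in tumors 6 and 5. Over all 12 libraries its log2 fold change was 2.42 ± 0.98 (SE; edgeR adjusted p = 0.175). DESeq2 put it past the threshold over the same libraries (1.88; DESeq2 adjusted p = 0.0471). For tumors 1 to 6 over the controls it was 2.64 ± 0.46 (SE; edgeR adjusted p = 6.22e-04), and for tumors 7 to 9 it was -0.34 ± 0.25 (SE; edgeR adjusted p = 0.731). A list of 18 genes of alpha chain assembly and receptor signaling included the recombinase Rag1, the terminal transferase Dntt, the CD3 chains and the kinase Lck. Over all 12 libraries edgeR called 0 of the 18 (0% of all genes were called higher and 0.00494% lower). At an unadjusted p below 0.05 there were 14, and the share of all genes at that cutoff was not taken. DESeq2 called 13 higher and 0 lower (25.6% and 0.366% of all genes). For tumors 1 to 6 over the controls edgeR called 15 of the 18 higher and 0 lower (19.6% and 20.3% of all genes), with a median log2 fold change of 3.52 beside -1.29 over all genes. The joining segments (60 Traj genes) had 69 to 108 counts per control and 33 to 1875 per tumor, and the largest of them held 5.75% to 18.2% of Traj counts. Trgv2, the only gamma chain V gene listed, had 0 to 14 counts.

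The beta chain partner of the F5 receptor, Trbv16 (V beta 11), took 25.1%, 30.8% and 25.9% of Trbv counts in the controls. It took 93.2% in tumor 5, 82.8% in tumor 3, 64.6% in tumor 2 and 61.2% in tumor 6, all above the highest control. It took 25.3% in tumor 1, 3.01% in tumor 4 and 16.6% to 23.8% in tumors 7 to 9. Trbv19 led tumor 4 with 62.4%, and Trbv13-2 led tumor 1 with 50.0%. Tumor 5 and tumor 6 were thus high for both segments. Tumor 3 was high for Trbv16 with a low Trav6-1 share of 15.9%, and tumor 4 had low shares of both. Background was not removed from the Trbv shares. By density, Trbv16 in tumor 4 lay at 56.2 times the receptor median, against 12.5, 21.7 and 17.1 times in the controls.

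Position along the locus gave a further pattern. On chromosome 14 the Trav genes run from Trav1, 1793 kilobases from Trac, to Trav23, 243.4 kilobases from it. A first block holds Trav6-1, and then come a block of 39 d copies, a block of 34 n copies, the set of plain copies on the Trac side, and 7 single segments (Trav17 to Trav23). These 7 had 28, 64 and 54 counts in the controls. They had none in tumors 3, 4 and 7 and 1 in tumor 8, but 35, 52, 63, 156 and 71 in tumors 1, 2, 5, 6 and 9. At the density of the median receptor gene, 18.8 counts would have been seen in tumor 7 and 22.1 in tumor 8, but 1.59 in tumor 3 and 1.89 in tumor 4.

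The run without any count at the Trac end was longest in tumor 3, at 16 members from Trav7-6 to Trav23. It was 10 members in tumor 4, 8 in tumor 7, 6 in tumor 8 and 3 in tumor 5, and 0 or 1 in the controls and in tumors 1, 2, 6 and 9. At the density of the median receptor gene these runs would have held 20.3 counts in tumor 7 and 19.2 in tumor 8. In tumors 3, 4 and 5 they would have held only 3.55, 2.51 and 0, so run lengths are not comparable among these libraries. By counts, the 6 Trdv genes, V segments of the delta chain, divided the libraries as the 7 segments did. They had 47.3, 58.0 and 41.5 counts in the controls, 3.15, 5.00, 5.53 and 0 in tumors 3, 4, 7 and 8, and 27.7 to 108 in tumors 1, 2, 5, 6 and 9. Trdc, the delta chain constant gene, had 101 to 149 counts in the controls. It had 5, 7, 12 and 35 counts in tumors 3, 4, 7 and 8, and 145 to 2790 in the other 5 tumors. Against the receptor median, tumors 3 and 4 did not go with tumors 7 and 8. Trdc lay at 1.16 and 1.37 times in tumors 3 and 4, and at 0.247 and 0.631 times in tumors 7 and 8. The controls were at 1.26 to 1.80 times. The Trdv genes lay at 2.11, 2.81, 0.313 and 0 times in tumors 3, 4, 7 and 8, and at 1.62 to 2.12 times in the controls. The 7 Trav segments, the Trdv genes and Trdc lie together at the Trac end of the locus, so these are not independent measures.

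**Figure D4:**
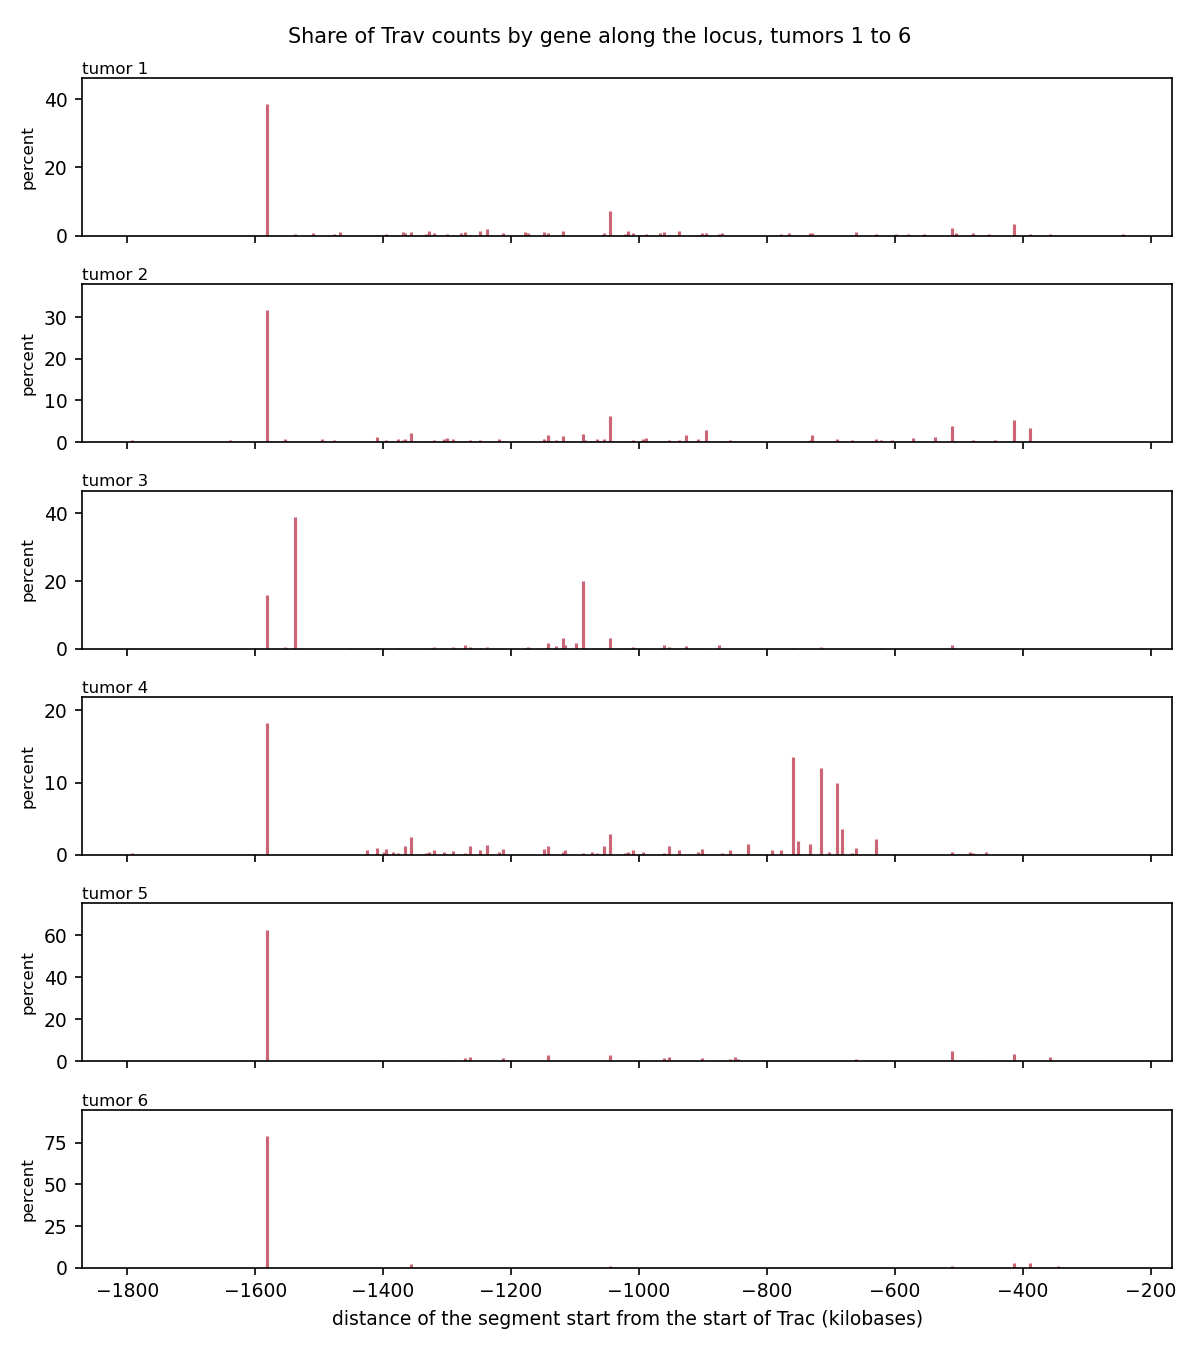
Percentage of Trav counts per Trav gene (vertical lines) by distance of the gene's start from the start of Trac, in kilobases, for tumors 1 to 6, each panel with its own vertical scale. Trav6-1 is the first tall line from the left in each panel; tumor 3 has further lines at Trav7d-2 and Trav6n-6, tumor 4 at Trav7-4, Trav10 and Trav7-5, and neither has a line among the 7 segments nearest Trac. The line drawn at Trav7d-2 could belong to Trav7-2.

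In the controls and tumors 7 to 9, where nearly all receptor genes had counts, the stretches of the locus could be set against the receptor median of the same library. Outside the locus, 4 olfactory receptor genes on the far side of Trav1 lay at 0.971 to 1.14 times that median in the controls and at 1.32, 1.60 and 1.22 times in tumors 7, 8 and 9. Dad1 and Abhd4, on the far side of Trac, lay at 1.14 to 1.41 times in the controls and at 1.45, 1.52 and 1.25 times in these tumors. In tumors 1 to 4 these genes lay at 4.34, 3.63, 20.8 and 10.8 times, so their values may hold expression as well as background. Inside it, the 7 segments nearest Trac lay at 0.910, 2.20 and 1.98 times in the controls, at 0 in tumor 7, 0.0452 in tumor 8 and 1.94 in tumor 9. The plain copies in the middle of their set stood at 0.0288 times in tumor 8 (1.37 counts) and at 1.12 times in tumor 7. Those nearest to Trav17 stood at 0.508 times in tumor 7 and 0.0767 times in tumor 8, against 1.08 to 1.70 times in the controls.

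The d and n blocks were higher in tumors 7 and 9 than in the controls. The d block lay at 0.801 to 1.17 times the receptor median in the controls, 1.90 times in tumor 7, 0.911 times in tumor 8 and 2.76 times in tumor 9. The n block lay at 0.522 to 1.02 times in the controls, and at 1.77, 0.396 and 3.17 times in tumors 7, 8 and 9. Tumors 7 and 9 were above the 3 controls for both blocks, and tumor 8 was within the control range for the d block and below it for the n block. The part of the plain copies farthest from Trac was also above the controls there, at 2.23 and 2.11 times in tumors 7 and 9 against 1.11 to 1.69 times, as was the first block in tumor 9 (2.17 times against 1.34 to 1.78). Many d and n copies have no word of their own, so the division of counts between these blocks is partly an allocation, and the sources used here do not give how many copies of the blocks these mice carry. These blocks and runs were laid out after the values were seen, and carry no test.

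**Figure D5:**
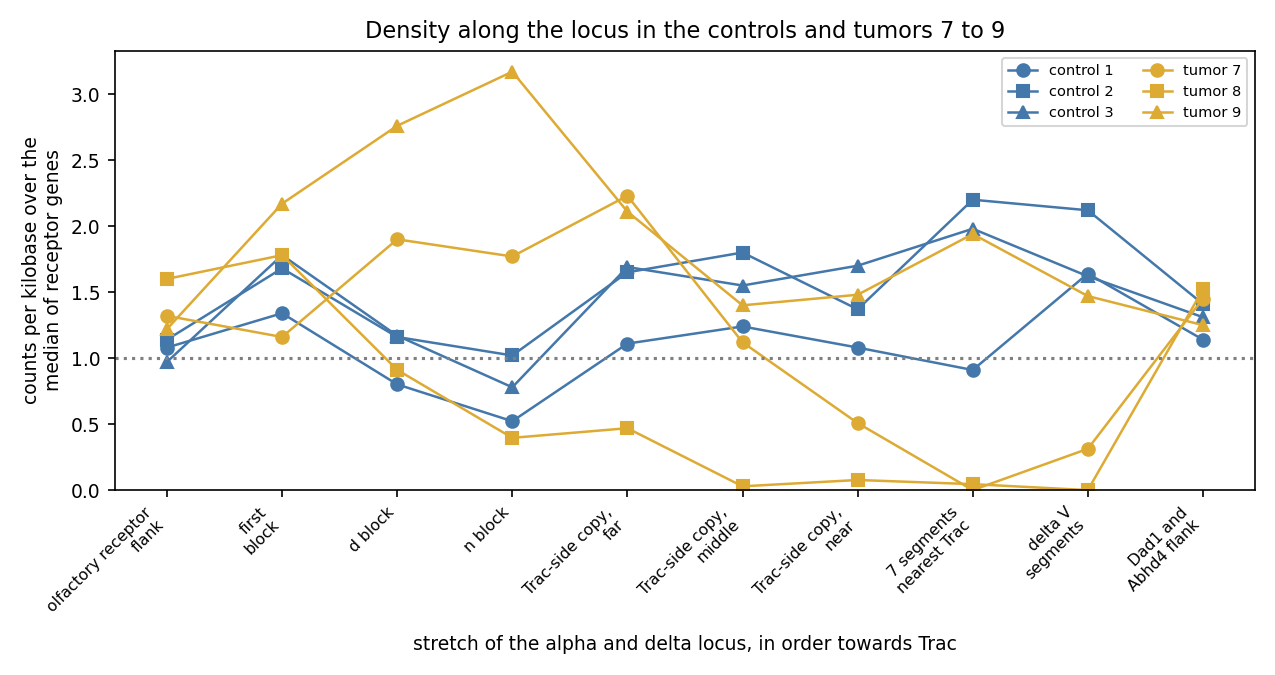
Counts per kilobase of effective length over the median of the olfactory and vomeronasal receptor genes of the same library, for 10 stretches in order from the far flank to the flank beyond Trac, in the 3 controls (blue) and tumors 7 to 9 (yellow); the dotted line marks the receptor median, and Trav6-1 is left out. Tumors 7 and 8 are at 0 and 0.0452 in the 7 segments nearest Trac. They are at 1.45 and 1.52 in the flank beyond it, whose genes may be expressed and so are not a plain background level.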

How the data were processed

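Polyadenylated RNA of 9 tumor and 3 control thymus libraries was measured. Per the file headers, the authors deposited kallisto estimated counts per transcript with transcript and effective lengths, and TPM values, deposited in the same files. Besides kallisto, the submitters' processing notes list FastQC and mm10. The sources used here give neither versions nor the annotation release. V, joining and constant segments are separate entries among the 128622 transcripts, so a joined receptor mRNA has no entry of its own.

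Estimated counts were summed per gene (Python 3.11.15, pandas 2.3.3) and rounded for the tests. Shares of Trav counts carry 95% Wilson intervals, reaching at most 4.9 percentage points to either side, and 3 counts were taken as the limit that a count of 0 allows. The Trav6 family share was compared by a two-sided exact permutation test (numpy 2.4.6, scipy 1.17.1). edgeR 4.0.16 (R 4.3.3, glmQLFit, TMM factors, filterByExpr by group, Benjamini-Hochberg over all genes, threshold 0.05) compared groups over the whole table. Its code was tested on simulated data with the same dispersion for every gene. That simulation does not cover libraries as unlike as these. DESeq2 1.42.0 was an alternative. Densities are counts per kilobase of effective length. The median receptor density planned as reference is 0 in tumors 5 and 6, so the 95th percentile was added. Words of 31 bases, kallisto's usual length and not stated for these files, were compared among 124307 of the listed transcripts found in GENCODE M21. Coordinates are those of that annotation of GRCm38.

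Named were the 3 largest segments of each library, all Trav6 segments, genes past the edgeR threshold, Trav1 and Trav11. The members and lists were chosen with earlier results of these data known. Controls 1 to 3 and tumors 1 to 3 share numbers without being paired: the correlations of their deviations were 0.0656, 0.0841 and -0.0939. No library repeated another. Alternatives were other scalings, filters, joined copies, TPM shares, background removal, a block on the replicate number, and libraries left out.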

Additional observations from a re-analysis of the deposited data

Results flagged for a closer look

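Among the 9 tumors, 28 values were examined for a single library far from the others, by its gap to the nearest tumor over the whole range, and 9 stood out. Chance gives such a gap in about 1 of 20 groups, but most of these segments were examined because they were among the largest of some library, so that rate does not apply to them. Tumor 3 stood out for Trav7-2 at 39.0% of Trav counts, where the nearest tumor had 2.57%, and for Trav6-6 at 20.0%, where the nearest had 3.42%. Tumor 4 stood out for Trav7-4 at 13.6% (nearest 3.08%) and for Trav10 at 13.0% (nearest 3.44%). Tumor 5 stood out for Trav6-7 at 7.83%, with 4.13% in the nearest tumor. Tumor 6 stood out for Trav6-1 at 9730 counts per kilobase of effective length, against 3960 in tumor 5. Tumor 8 stood out for Trav6-3 at 5.14% (nearest 2.13%), which rests on 18 counts, and for Trav1 at 1.43% (nearest 0.587%), which rests on 5 counts. Tumor 9 stood out for Trav3-2 at 2.03%, from 38 counts, where the nearest tumor had 0.872%.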

How the results depend on the processing

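Trav6-1 stayed the largest segment in the 11 libraries it led, and Trav7-2 in tumor 3, with single genes, TPM shares and background removed. Subtracting counts at the receptor median raised the largest share to 61.1%, 38.7% and 43.5% in controls 1 to 3, to 43.7% in tumor 1, and to 13.3%, 58.4% and 11.1% in tumors 7 to 9. Tumors 1 and 8 then lay within the control range and tumor 2, at 35.4%, below it. The same subtraction lowered the effective number of segments to 2.64, 6.27 and 5.03 in the controls and to 2.82 in tumor 8. Tumors 2, 4, 7 and 9 were then above all controls, at 6.8, 10.4, 22.9 and 29.5. TPM shares moved the largest share to 21.4% in tumor 4 and 81.1% in tumor 6, and single genes moved the effective number to 56.9 in tumor 7 and 64.2 in tumor 9. The Trav6 family difference stayed between 3.63 and 11.7 points with each library left out, turned to -6.98 with background removed and to -5.79 with only tumors 7 to 9, and was 3.13 without Trav6-1, an alternative chosen after seeing the data. Over all alternatives its exact p ran from 0.25 to 0.836.

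Without tumors 7 to 9 edgeR called 3 Trav genes higher and 9 lower. Each library left out in turn gave 0 in both directions. Trac stayed between 2.08 and 2.57 and Trav6-1 between 0.91 and 1.83 in those fits, and Trav7d-2 ran from -0.81 without tumor 3 to 3.38. Trav6-1 turned to -0.33 with library totals and to -0.96 against tumors 7 to 9 alone, where Trac turned to -0.34. The replicate block, over numbers that do not pair the samples, gave 7 higher (20.7% of all genes were called higher there) and 0 lower, and a family difference of 7.20 points over 3 pairs (exact sign-flip p = 0.25, the smallest possible). Trac, Trav6-1 and Trav7d-2 passed the threshold in it. The cause of these changes was not tested, apart from the samples left out. With 350 to 2197 Trav counts per library, depth limits every share.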
